A study of Mus musculus with 31 samples.

Results

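The 38 genes described here encode the enzymes, transporters and accessory proteins that break down fatty acids in mitochondria and peroxisomes and that make or use ketone bodies. They were taken from a list of symbols of mitochondrial, peroxisomal and ketogenic genes and matched to Ensembl identifiers by the GENCODE vM21 annotation. All 38 are among the 34519 identifiers present in both count tables, of 55288 identifiers in either table. By role they are 4 genes of the carnitine shuttle, 6 acyl-CoA dehydrogenases, 3 genes of electron transfer, 7 genes of the later mitochondrial steps, 11 peroxisomal genes, 5 genes of acyl-CoA synthesis and hydrolysis and 2 ketone body enzymes.

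RNA was sequenced from 31 tissue samples of C57BL/6N mice in 2 experiments of a study on the nuclear receptor ERRα and insulin action. In the first, WT mice and mice with a whole-body germline knockout of ERRα (KO) went without food for 12 h before an intraperitoneal dose of saline or of insulin (1 unit/kg), and livers were taken 4 h later. In the second, livers and muscles came from ERRα 3SA mice, a whole-body CRISPR knock-in in which 3 serines of ERRα are replaced by alanine, and from their WT littermates, on a normal diet. The methods give male mice of 2 to 3 months, and they name gastrocnemius and soleus as the muscles. The 8 groups were WT liver after saline, WT liver after insulin, KO liver after saline and the livers and muscles of WT littermates and of 3SA mice, with 4 samples each, and KO liver after insulin with 3, its replicates 1, 2 and 4. The methods describe housing with free access to food and give no fast for the 3SA mice and their littermates, and p-values below measure the spread between individual mice only.

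A long-chain fatty acid is first bound to coenzyme A by an acyl-CoA synthetase and is carried into mitochondria by the carnitine shuttle, where rounds of dehydrogenation, hydration, a second dehydrogenation and thiolysis shorten it. Electrons from the first step pass through the electron transfer flavoprotein to the respiratory chain. Peroxisomes shorten very long and branched chains, and the fasted liver turns acetyl-CoA into ketone bodies that muscle and other organs burn.

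Total counts per sample were 37508292 to 41740965 in WT livers after saline, 35871419 to 40590962 in WT livers after insulin, 39250853 to 48317108 in KO livers after saline and 38156804 to 40067603 in KO livers after insulin. The second experiment was shallower, with 23426588 to 33412022 in littermate livers, 20481405 to 22836176 in 3SA livers, 23561675 to 25831378 in littermate muscles and 22241960 to 28835765 in 3SA muscles. A floor of 3 counts stood for 0.0621 CPM in the deepest sample of the insulin experiment and for 0.146 CPM in the shallowest of the 3SA experiment. Values are given as CPM, read counts scaled to library size, in replicate order. The tables were normalized separately, so levels from the 2 experiments are set side by side and not tested against each other.

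Esrra, the gene of ERRα, was read first as a check of the labels. It stood at 32.3, 51.3, 42.7 and 40.5 CPM in WT livers after saline and at 53.7, 96.5, 56.1 and 59.0 CPM in WT livers after insulin. In KO livers it stood at 1.63, 0.703, 1.15 and 1.04 CPM after saline and at 0.833, 0.576 and 0.298 CPM after insulin, so every KO liver lay below every WT liver. The knock-in leaves the gene in place, and littermate livers held 27.7, 27.1, 28.2 and 29.5 CPM beside 29.4, 25.4, 21.1 and 19.2 CPM in 3SA livers. In muscle the littermates held 90.2, 82.7, 67.0 and 78.1 CPM and the 3SA mice 24.3, 133, 127 and 94.6 CPM, with 3SA replicate 1 below all littermates and the other 3 above them. The tissues matched their labels, since 6 hepatocyte markers summed to between 56194 and 105450 CPM in the 23 livers and to between 8.06 and 18.7 CPM in the muscles. Conversely, 6 muscle-fibre markers summed to between 81063 and 183920 CPM in the muscles and to between 0 and 110.0 CPM in the livers.

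Several libraries stood apart from the rest of their group. In muscle, 3SA replicate 1 took 19.3% of its counts from the mitochondrial genome against 9.15 to 9.85% in the other 3SA muscles, 14.3% of its genes lay past 2-fold from the other replicates, and its muscle-fibre markers summed to 183920 CPM, 104330 of them Myh4. In 3SA muscle 4, the stellate cell and fibroblast markers summed to 2692 CPM, against 1003 to 1522 CPM in the other 3SA muscles, through Col3a1 at 1444 CPM and Col1a1 at 828 CPM, while Dcn, of the same list, was the lowest of the 8 muscles at 377 CPM. The macrophage markers of that muscle summed to 39.0 CPM, led by Cd68 at 21.5 CPM and with Clec4f at 0, against 6.71 to 6.96 CPM in the others. Among the 8 livers of the 3SA experiment, 3SA replicate 4 was the lowest in the hepatocyte marker sum (56194 CPM) and in 4 of its 6 genes, Alb (39835 CPM), Ttr (3904 CPM), Tat (950.3 CPM) and Serpina1c (713 CPM), and not in Apoa1 and Cyp2e1. WT insulin replicate 2 took 1.88% of its counts from the mitochondrial genome against 3.88 to 4.17% in its group. Muscle-fibre markers, all 6 with at least 10 counts, reached 110.0 CPM in WT insulin liver 3, 14.9 CPM in littermate liver 1 and 12.1 CPM in 3SA liver 3, and 5 of them reached 9.89 CPM in KO insulin liver 1.

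In several libraries most members lay to one side of the other mice of their group, while over all genes 43.4 to 54.3% lay higher in any library. In 3SA liver 4, 35 of 37 members lay below the other 3SA livers, with a median log2 deviation of −0.51, while in 3SA liver 3, 34 of 37 lay above, with a median of 0.33. In littermate liver 1, 37 of 37 lay above the other littermates, with a median of 0.22, and in littermate liver 4, 35 of 37 lay below. In 3SA muscle 4, 30 of 36 lay below, with a median of −0.24. Fasted WT livers split in a like way, since replicates 1 and 2 had medians of −0.08 and −0.29 after saline and −0.27 and −0.28 after insulin, and replicates 3 and 4 had 0.16 and 0.15 after saline and 0.16 and 0.21 after insulin. In littermate muscle 3, 31 of 35 lay below, with a median of −0.15, and in littermate muscle 2, 28 of 35 lay above, with a median of 0.10. Other libraries had no shared direction, such as KO saline liver 4, with 19 higher and 18 lower, and littermate muscles 1 and 4, with 19 and 16 each. Beside these shared deviations, the median differences between groups reported below, outside the comparison of tissues, reach at most 0.17, and the source of the deviations was not tested.

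**Figure D1:**
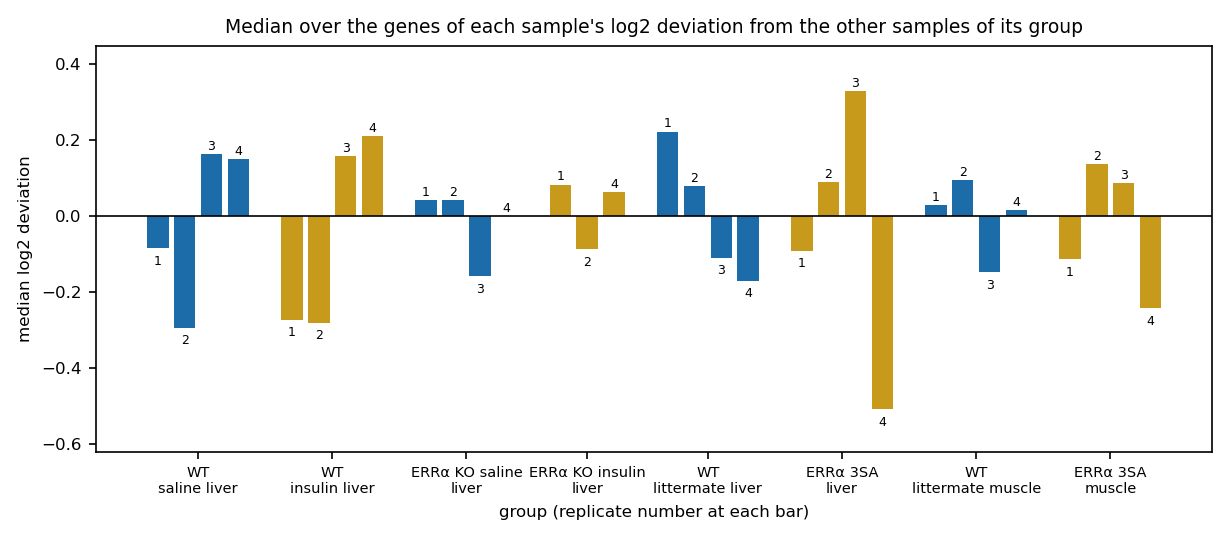
Median log2 deviation of the members compared in each sample from the other samples of its group, drawn as one bar per sample with its replicate number. The bar of 3SA liver 4 reaches −0.51 and that of 3SA liver 3 reaches 0.33.

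Some members share sequence or exons with other genes. Acot1, Acot2, Acot3 and Acot4 are neighbouring paralogs on chromosome 12, Acaa1a and Acaa1b are paralogs on chromosome 9, and how reads that match several of them were counted is not stated. Exons of Cpt1b are covered for 81.4% of their length on the same strand by the readthrough gene Gm44502, and those of Etfb for 58.2% by Gm45233. Gm44502 and Gm45233 stood at 0 counts in all 16 samples of the 3SA table and are absent from the insulin table. Chkb, the neighbour that Gm44502 joins to Cpt1b, stood at 20.5 to 46.4 CPM in the insulin table and at 0 to 0.491 CPM in the 3SA table. The effect of these overlaps on the counts of Etfb and Cpt1b was not tested. Exons of Acadvl are covered for 42.9% on the opposite strand by Dvl2, which stood at 1.07 to 7.38 CPM over all samples.

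Levels between genes were compared as CPM per kb of the principal transcript. In WT livers after saline the peroxisomal bifunctional enzyme gene Ehhadh led with 1151 ± 444 CPM per kb (SD, n = 4), followed by the peroxisomal thiolase gene Acaa1b with 834 ± 391 and the long-chain acyl-CoA synthetase gene Acsl1 with 598 ± 74.2. The spreads of Ehhadh and Acaa1b overlapped, and so did those of Acaa1b and Acsl1, so the order within each of these pairs is not settled. At the other end were Oxct1, with 1.28 ± 0.379, and the muscle carnitine palmitoyltransferase gene Cpt1b, with 0.0317 ± 0.0372. In littermate livers Acaa1b and the mitochondrial thiolase gene Acaa2 led with 613 ± 167 and 612 ± 49.8, and Ehhadh stood at 114 ± 14.3. In littermate muscles the trifunctional protein gene Hadhb led with 206 ± 10.2, followed by the medium-chain dehydrogenase gene Acadm with 181 ± 12.4, while Acot4 stood at 0.0395 ± 0.0311 and Acot3 at 0. Acsl1, Acadm and Hadhb are among genes chosen for the text after their values were seen.

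Promoters were read for a 9-base ERR response element that ends in AGGTCA, and 3 of them are printed here because their genes recur below. Of the 38 genes, 32 had a RefSeq promoter of GRCm38.p6, from 250 bases before to 50 bases after the start, and Cpt1b, Acaa2, Decr1, Hsd17b4, Abcd2 and Crat had none in the table. The 9-base element, searched on both strands, was in 421 of 32851 promoters (1.28%) and in 0 of the 36 promoters of members. A direct repeat of AGGTCA with 1 base between was in 13 promoters (0.0396%) and in 0 of the members' promoters. The half-site AGGTCA alone, which is contained in both and was searched after they gave no member, was in 5340 promoters (16.3%), and by gene in 4900 of 27025 genes (18.1%) and in 6 of the 32 members (18.8%), Acadm, Acadvl, Acot3, Acot4, Cpt1a and Echs1. The members' share is near that of all genes, and a match is a description of letters in this window only. Capitals mark the half-site, which reads TGACCT where it lies on the other strand. The promoter of Acadvl is chr11:70015379-70015678 on the minus strand, that printed for Acot3 is chr12:84051901-84052200 on the plus strand and that of Cpt1a is chr19:3323051-3323350 on the plus strand. Another RefSeq promoter of Acot3, chr12:84051894-84052193, also holds the half-site and is not printed.
Acadvl: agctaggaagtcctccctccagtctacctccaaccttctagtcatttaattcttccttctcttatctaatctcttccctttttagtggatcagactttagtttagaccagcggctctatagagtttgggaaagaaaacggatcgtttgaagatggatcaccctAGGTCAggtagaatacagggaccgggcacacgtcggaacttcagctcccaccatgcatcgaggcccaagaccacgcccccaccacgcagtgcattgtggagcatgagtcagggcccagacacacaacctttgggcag
Acot3: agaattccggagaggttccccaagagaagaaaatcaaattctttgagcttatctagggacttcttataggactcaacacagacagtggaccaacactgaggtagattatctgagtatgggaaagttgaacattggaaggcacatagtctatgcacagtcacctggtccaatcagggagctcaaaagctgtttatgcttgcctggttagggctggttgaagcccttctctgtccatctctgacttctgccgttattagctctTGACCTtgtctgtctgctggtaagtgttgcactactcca
Cpt1a: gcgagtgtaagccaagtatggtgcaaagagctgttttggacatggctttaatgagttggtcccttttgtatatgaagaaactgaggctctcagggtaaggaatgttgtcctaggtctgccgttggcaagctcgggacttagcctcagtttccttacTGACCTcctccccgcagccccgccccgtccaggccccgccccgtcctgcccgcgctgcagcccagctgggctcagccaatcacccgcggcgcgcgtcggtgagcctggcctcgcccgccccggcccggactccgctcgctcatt

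In the fasted livers, the 2 isoforms of carnitine palmitoyltransferase 1, which load long-chain acyl groups onto carnitine, lay far apart in level. Cpt1a (ENSMUSG00000024900, chromosome 19, 3322334 to 3385733, plus strand), the liver isoform, stood at 1171, 1621, 1066 and 1081 CPM in WT livers after saline and 1152, 713, 926 and 986 CPM after insulin. It stood at 1313, 1194, 1374 and 1039 CPM in KO livers after saline and 1115, 1189 and 1141 CPM after insulin. WT saline replicate 2 was the highest of all 15 livers and WT insulin replicate 2 the lowest, and all 4 groups overlapped. Cpt1b (ENSMUSG00000078937, chromosome 15, 89416405 to 89425863, minus strand), the muscle isoform, stood at 0, 0, 0.206 and 0.162 CPM in WT livers after saline and 0.399, 0, 0.120 and 0.213 CPM after insulin. In KO livers it stood at 0.0262, 0.0485, 0.174 and 0.244 CPM after saline and at 0.0520, 0.137 and 0.0814 CPM after insulin. With at most 0.399 CPM in any fasted liver, Cpt1b was not tested there.

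Of the acyl-CoA dehydrogenases, Acad11 (ENSMUSG00000090150, chromosome 9, 104063377 to 104127725, plus strand) stood at 349.7, 340.1, 383 and 347 CPM in WT livers after saline and 286, 229, 321 and 346 CPM after insulin. It stood at 310.4, 301, 276 and 279 CPM in KO livers after saline and 287, 279 and 297 CPM after insulin. The 4 KO livers after saline lay below the 4 WT livers after saline, and the insulin groups overlapped. Etfb (ENSMUSG00000004610, chromosome 7, 43444083 to 43457800, plus strand), the beta subunit of the electron transfer flavoprotein, stood at 241, 241, 263 and 278 CPM in WT livers after saline and 292, 368, 253 and 306 CPM after insulin. It stood at 340.4, 279, 276 and 335 CPM in KO livers after saline and 315, 250.4 and 298 CPM after insulin. WT insulin replicate 2 was the highest and the saline groups overlapped narrowly. Acaa2 (ENSMUSG00000036880, chromosome 18, 74779197 to 74806208, plus strand), the mitochondrial thiolase of the last step, stood at 674, 572, 788 and 797 CPM in WT livers after saline and 584, 642, 717 and 793 CPM after insulin. It stood at 779, 762, 725 and 798 CPM in KO livers after saline and 597, 591 and 643 CPM after insulin. All 3 KO livers after insulin lay below all 4 KO livers after saline.

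Among peroxisomal genes, the paralogs Acaa1a and Acaa1b encode thiolases of the last step. Acaa1a (ENSMUSG00000036138, chromosome 9, 119339676 to 119350299, plus strand) stood at 231, 198, 234 and 265 CPM in WT livers after saline and 213, 256, 206 and 255 CPM after insulin. It stood at 316, 262, 229 and 319 CPM in KO livers after saline and 265, 226 and 242 CPM after insulin. WT saline replicate 2 was the lowest and KO saline replicates 1 and 4 the highest, and all groups overlapped. Acaa1b (ENSMUSG00000010651, chromosome 9, 119148023 to 119157093, minus strand) stood at 958, 736, 2079 and 1859.9 CPM in WT livers after saline and 925, 839, 1730.5 and 2295 CPM after insulin. It stood at 1609.8, 1961, 779.6 and 1372 CPM in KO livers after saline and 1796, 1277 and 1565 CPM after insulin. WT replicates 1 and 2 lay below WT replicates 3 and 4 after either injection, and KO saline replicate 3 lay among the lowest WT livers.

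Ehhadh (ENSMUSG00000022853, chromosome 16, 21761287 to 21787807, minus strand), the bifunctional enzyme that hydrates and oxidizes the chain in peroxisomes, stood at 3289, 2315, 5324 and 2795 CPM in WT livers after saline and 3639, 2534, 4877 and 5116 CPM after insulin. It stood at 2022, 3317, 1407 and 1913 CPM in KO livers after saline and 3704, 2676 and 3119 CPM after insulin. KO livers after saline included the lowest value, in replicate 3, and replicate 2 of that group lay among the WT livers. Ech1 (ENSMUSG00000053898, chromosome 7, 28825217 to 28832247, plus strand), a dienoyl-CoA isomerase, stood at 298, 194, 293 and 308 CPM in WT livers after saline and 227, 298, 332 and 308 CPM after insulin. It stood at 334, 338, 331 and 368 CPM in KO livers after saline and 308, 269 and 309.7 CPM after insulin. WT saline replicate 2 was the lowest, and the 4 KO livers after saline lay above the 4 WT livers after saline. Decr2 (ENSMUSG00000036775, chromosome 17, 26081208 to 26090337, minus strand), the peroxisomal dienoyl-CoA reductase, stood at 255, 247, 220.4 and 227 CPM in WT livers after saline and 235, 274, 221 and 239.6 CPM after insulin. It stood at 215, 214, 209 and 195 CPM in KO livers after saline and 218, 233 and 219.7 CPM after insulin. KO livers after saline lay below WT livers after saline and below KO livers after insulin, and neither difference was called.

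Abcd2 (ENSMUSG00000055782, chromosome 15, 91145871 to 91191799, minus strand), a transporter of very long acyl-CoA into peroxisomes, stood at 7.72, 6.13, 24.2 and 31.8 CPM in WT livers after saline and 4.04, 4.54, 17.6 and 10.1 CPM after insulin. It stood at 21.2, 8.97, 34.4 and 19.2 CPM in KO livers after saline and 6.35, 2.4974 and 5.3999 CPM after insulin. The 3 KO livers after insulin lay below the 4 KO livers after saline, while WT replicates 1 and 2 were low and 3 and 4 higher after either injection. Crot (ENSMUSG00000003623, chromosome 5, 8966033 to 8997324, minus strand), which moves medium-chain acyl groups from coenzyme A to carnitine, stood at 1199, 1004, 1351 and 955 CPM in WT livers after saline and 1343, 747, 891 and 878 CPM after insulin. It stood at 908, 949, 1201 and 804 CPM in KO livers after saline and 676, 675 and 857 CPM after insulin. KO livers after insulin included the lowest values, and one of them lay inside the range of KO livers after saline. Pex11a (ENSMUSG00000030545, chromosome 7, 79735957 to 79743131, minus strand), a factor of peroxisome division, stood at 123, 104, 177 and 138 CPM in WT livers after saline and 143, 144, 186 and 196 CPM after insulin. It stood at 122, 180.1, 70.1 and 135 CPM in KO livers after saline and 144, 119 and 137 CPM after insulin. KO saline replicate 3 was the lowest and all groups overlapped.

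The thioesterases Acot1 to Acot4 split acyl-CoA into free acid and coenzyme A, Acot1 in the cytosol, Acot2 in mitochondria and Acot3 and Acot4 in peroxisomes. Acot1 (ENSMUSG00000072949, chromosome 12, 84009490 to 84018371, plus strand) stood at 192, 93.9, 376 and 225 CPM in WT livers after saline and 178, 144, 429.7 and 478 CPM after insulin. It stood at 153, 307, 126 and 165 CPM in KO livers after saline and 228, 167 and 209 CPM after insulin. WT insulin replicates 3 and 4 were the highest, and all groups overlapped. Acot2 (ENSMUSG00000021226, chromosome 12, 83987861 to 83993873, plus strand) stood at 15.6, 12.9, 46.8 and 29.9 CPM in WT livers after saline and 14.4, 7.35, 65.6 and 66.3 CPM after insulin. It stood at 22.9, 30.5, 16.2 and 30.8 CPM in KO livers after saline and 19.9, 11.0 and 20.2 CPM after insulin. The same 2 WT insulin livers were the highest, and all groups overlapped. Acot3 (ENSMUSG00000021228, chromosome 12, 84052144 to 84060402, plus strand) stood at 19.9, 5.77, 22.5 and 39.9 CPM in WT livers after saline and 2.55, 0.652, 12.8 and 13.8 CPM after insulin. It stood at 14.0, 42.1, 7.07 and 10.7 CPM in KO livers after saline and 4.81, 5.16 and 7.92 CPM after insulin. After insulin, WT replicates 1 and 2 were the lowest and 3 and 4 lay inside the range of WT livers after saline, and 1 of 3 KO livers overlapped the KO livers after saline. Acot4 (ENSMUSG00000052392, chromosome 12, 84038379 to 84048601, plus strand) stood at 38.4, 25.5, 57.6 and 55.5 CPM in WT livers after saline and 22.2, 15.2, 47.0 and 45.2 CPM after insulin. It stood at 37.5, 63.2, 22.1 and 33.7 CPM in KO livers after saline and 29.6, 28.5 and 31.2 CPM after insulin. KO livers after insulin lay close together inside the range of KO livers after saline.

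Of the ketone body enzymes, Bdh1 (ENSMUSG00000046598, chromosome 16, 31422280 to 31458901, plus strand) interconverts acetoacetate and 3-hydroxybutyrate, the last step of ketone body synthesis in liver. It stood at 217, 183, 266 and 263 CPM in WT livers after saline and 196, 126, 213 and 213 CPM after insulin. It stood at 209, 188, 187 and 219.7 CPM in KO livers after saline and 91.2, 114 and 126 CPM after insulin. All 3 KO livers after insulin lay below all 8 saline livers, and WT insulin replicate 2, at the level of KO insulin replicate 4, was the 1 WT liver inside their range. Oxct1 (ENSMUSG00000022186, chromosome 15, 4026383 to 4155344, plus strand), which activates acetoacetate for use and is a gene of organs other than liver, stood at 6.06, 3.11, 3.75 and 5.16 CPM in WT livers after saline and 7.9968, 6.38, 6.65 and 3.25 CPM after insulin. It stood at 2.57, 3.64, 4.05 and 3.50 CPM in KO livers after saline and 2.76, 2.99 and 4.80 CPM after insulin. It was low in every liver, and 3 of 4 WT livers after insulin lay above all KO livers.

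**Figure D2:**
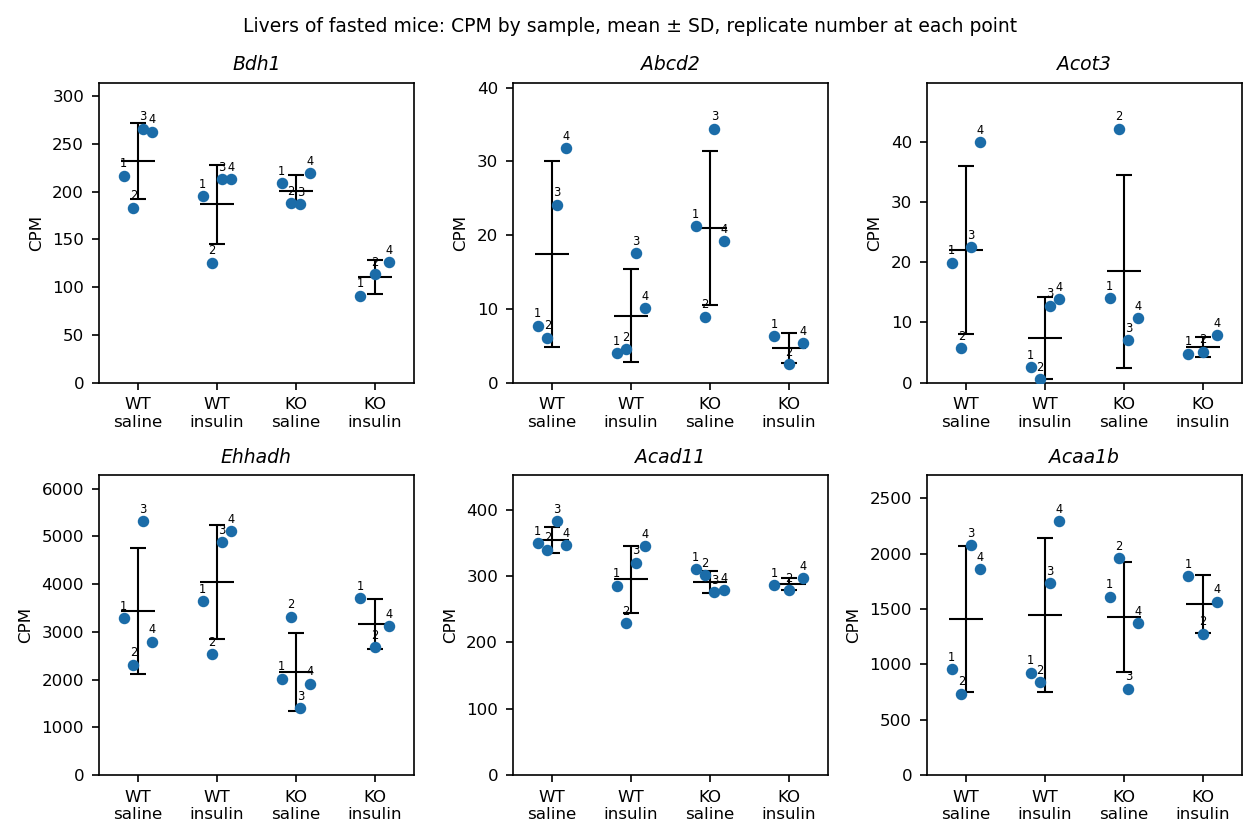
CPM in each fasted liver, with mean and SD, of 6 members in the 4 groups of the insulin experiment. Bdh1 in KO livers after insulin lies between 91.2 and 126 CPM, below all KO livers after saline.

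The first comparison asks how these genes stood 4 h after insulin in fasted WT livers. The members lay around no change, with 21 higher and 16 lower among 37 tested and a median log2 fold change of 0.02, beside 0.0036 over all 13463 genes tested. A gene is called here at an unadjusted p under 0.05 with a fold of at least 1.2. With edgeR 0 members were called, against 8.34% of all genes called higher and 8.91% called lower. On the unadjusted p alone there were also 0, on the adjusted p 0 against 3.16% of all genes, and DESeq2 called 1, Cpt1a. Among the differences without a call were those of Cpt1a (log2 fold change −0.39 ± 0.18, adjusted p = 0.301, 3 of 4 below the saline median) and Acot3 (−1.56 ± 0.76, adjusted p = 0.317, 4 of 4 below). Bdh1 (−0.31 ± 0.18), Acad11 (−0.27 ± 0.14) and Abcd2 (−0.94 ± 0.57) also lay lower. The count rests on single mice: 4 members were called without WT insulin replicate 4 (Acad11, Eci2, Acot3 and Oxct1), 3 without WT insulin replicate 3 (Etfb, Abcd2 and Acot3), and 2 each without WT saline replicate 2 (Abcd2 and Acot3), WT saline replicate 3 (Cpt1a and Pex11a) and WT insulin replicate 1 (Cpt1a and Crot). In these 5 fits 6.88 to 8.96% of all genes were called higher and 7.36 to 9.31% lower. With the replicate number as a block, 7 members were called, 2 higher and 5 lower, beside 8.01% and 9.4% of all genes. These were Acad11, Abcd2, Acot1, Acot3, Acot4, Bdh1 and Pex11a, and the labels do not say that equal numbers pair mice.

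Markers of other cells were read beside this comparison. Adipocyte markers summed to 14.1 to 50.1 CPM in WT livers after saline and to 58.0 to 106.8 CPM after insulin, led by Cidec at up to 104.9 CPM and with Plin1 or Lep at 0 in each insulin liver, and their part in the result was not tested. Of 33 further genes of the pathway that were tested, insulin gave 4 called higher (Nudt7, Acsl4, Acot7 and Slc27a4) and 4 called lower, among them Acsm5, Acaca and Acox3. Acsm5, a medium-chain acyl-CoA synthetase, was the 1 of them with an adjusted p under 0.05 (log2 fold change −0.69, adjusted p = 0.0119).

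In KO livers the same question gave falls in 6 members. Insulin lowered the ketone body enzyme Bdh1 and the peroxisomal transporter Abcd2, together with Acot3, the mitochondrial thiolase Acaa2, the carnitine octanoyltransferase Crot and Hadh, the short-chain hydroxyacyl-CoA dehydrogenase. Bdh1 had the smallest p (log2 fold change −0.87 ± 0.13, adjusted p = 0.0104, lower in 3 of 3). Abcd2 fell more on the log2 scale from a low level (−2.14 ± 0.43, adjusted p = 0.0279, lower in 3 of 3). The 6 are to be read against 9.14% of the 13684 genes tested called lower and 8.05% called higher, and 2 had an adjusted p under 0.05, against 2.91% of all genes. Over the 37 tested, 10 lay higher and 27 lower, with a median of −0.09 beside −0.02 over all genes.

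The other 4 did not pass the adjusted threshold. Acot3 fell with a wide error (−1.64 ± 0.53, adjusted p = 0.131, below the saline median in 3 of 3), and without KO saline replicate 2, its highest sample, the fall was −0.83, still called, while with all 4 groups in one fit Acot3 and Crot lost their calls. Acaa2 (−0.33 ± 0.11, adjusted p = 0.140, lower in 3 of 3) lost its call without KO insulin replicate 1, at −0.31. Crot (−0.40 ± 0.16, adjusted p = 0.233, lower in 3 of 3) lost its call without KO saline replicate 3, at −0.27, and without KO insulin replicates 1 or 2, at −0.34. Hadh, chosen for the text after its values were seen, stood at 244, 249, 203 and 257 CPM after saline and at 214, 167 and 169 CPM after insulin. Its groups overlapped through KO insulin replicate 1 (−0.38 ± 0.13, adjusted p = 0.157, below the saline median in 3 of 3), and the call was lost without KO insulin replicates 2 or 4, at −0.32. DESeq2 called 8 members, Ehhadh and Acot2 besides these 6, and 3 with an adjusted p under 0.05. Ehhadh lay higher in 3 of 3 without a call (0.54 ± 0.25, adjusted p = 0.290) and was called by DESeq2 and with no filter on low counts. Without KO saline replicate 2, Ehhadh, Acsl1 and Acot1 were called higher, so that 3 higher and 6 lower stood beside 8.91% and 8.7% of all genes. Of 33 further pathway genes tested, 5 were called higher, among them Nudt7, a peroxisomal coenzyme A hydrolase (0.71, adjusted p = 0.0492), and 4 were called lower, among them Acaca (−0.62) and Acat1 (−0.32).

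Whether the response to insulin differed between the genotypes was tested by the interaction of genotype and insulin. Bdh1 was the 1 member called, with a log2 difference of −0.55 ± 0.24, that is a lower response in KO than in WT livers. Its adjusted p was 0.547. By edgeR 0 members were under 0.05 after adjustment (1 before it) and by DESeq2 0, beside 0% of the 14670 genes tested. Over all genes 4.04% were called higher and 4.75% lower, and DESeq2 called 1 member. For the other 5 members called in KO livers the interaction gave no call: Abcd2 −1.20 ± 0.81, Acot3 −0.07 ± 1.04, Acaa2 −0.28 ± 0.18, Crot −0.17 ± 0.26 and Hadh −0.31 ± 0.24. A fall called in KO and not in WT livers is therefore not shown to differ between them for these 5. Over 37 members the median was −0.14 beside −0.02 over all genes, with 26 lower. The call of Bdh1 was lost in 9 of 15 fits with a sample left out: WT saline replicates 1 and 2, WT insulin replicates 1, 3 and 4, KO saline replicates 1 and 4 and KO insulin replicates 1 and 2, with −0.43 without KO insulin replicate 1. Leaving out WT insulin replicate 2 added Acot2 and leaving out KO saline replicate 2 added Acsl1, for a count of 2 each, and without WT insulin replicate 1 or 3 the called member was Acadl or Etfb. Of 33 further pathway genes, 3 were called, among them Acox3 and Acsm5, both higher.

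The effect of the knockout itself was compared first after saline. Fasted KO livers held less Acad11 and Ehhadh and more Etfb and Ech1 than WT livers, 4 members in all. Acad11 was lower in 4 of 4 (log2 fold change −0.28 ± 0.10, adjusted p = 0.277) and Ehhadh in 3 of 4 (−0.66 ± 0.29, adjusted p = 0.394). Etfb was above the WT median in 4 of 4 (0.27 ± 0.11, adjusted p = 0.364) and Ech1 in 4 of 4 (0.33 ± 0.14, adjusted p = 0.392). Of the 13481 genes tested, 5.98% were called higher and 5.3% lower, so 2 of 37 members each way is a share near the background and not a result about the members. No member passed the adjusted threshold, that is 0 by edgeR and 0 by DESeq2, against 0.0816% of all genes. On the unadjusted p there were 4, and DESeq2 called 4, Acsl1 in place of Ehhadh. The median was 0.01 beside 0.0037 over all genes, with 19 higher and 18 lower.

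Each of these 4 calls hung on single mice. Acad11 lost its call without WT saline replicate 3 or KO saline replicates 3 or 4, with −0.24 without the first. Etfb lost it without WT saline replicates 1, 2 or 3 or KO saline replicates 1 or 4, with 0.21 without KO saline replicate 1, and also with all 4 groups in one fit, where Acaa1a was called. Ehhadh lost it without WT saline replicates 1 or 3 or KO saline replicates 1, 3 or 4, with −0.37 without WT saline replicate 3. Ech1 lost it without WT saline replicates 2 or 3 or any of the 4 KO saline livers, with 0.19 without WT saline replicate 2. The count was 0 without WT saline replicate 3 or KO saline replicate 4, 1 without KO saline replicate 1, 2 without WT saline replicate 1 and 6 without WT saline replicate 4, the last beside 5.29% of all genes called higher and 4.13% lower. After insulin none of the 4 was called between the genotypes (Acad11 −0.05 ± 0.15, Etfb −0.09 ± 0.16, Ech1 0.01 ± 0.15 and Ehhadh −0.36 ± 0.23), and their interactions gave no call (Acad11 0.25 ± 0.17, Etfb −0.35 ± 0.19, Ech1 −0.31 ± 0.21 and Ehhadh 0.31 ± 0.41). Of 33 further pathway genes, 2 were called higher, among them Amacr (0.34), and 1 lower (Acox3 −0.50).

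After insulin, 2 members were called lower in KO than in WT livers, Bdh1 and Oxct1. Bdh1 was below the WT median in 3 of 3 (log2 fold change −0.77 ± 0.20, adjusted p = 0.205, DESeq2 adjusted p = 0.0187), with 1 WT liver inside the KO range. Oxct1, at a few CPM, was below the WT median in 3 of 3 (−0.80 ± 0.34, adjusted p = 0.462). These 2 of 37 members called lower, and 0 called higher, stand beside 5.42% and 4.57% of the 13665 genes tested, a share near the background and not a result about the members. After adjustment 0 members were under 0.05 with edgeR (2 before it) and 1 with DESeq2, against 0.0585% of all genes. DESeq2 called 4, Abcd2 and Pex11a besides these. After saline the same members gave Bdh1 −0.21 ± 0.13 and Oxct1 −0.39 ± 0.25 without a call, and the interaction for Oxct1 was −0.39 ± 0.42, also without a call. Of all 37 tested, 29 lay lower, with a median of −0.11 beside −0.02 over all genes. The hepatocyte marker sum differed between the same livers, with 97606 to 102520 CPM in KO and 80179 to 92469 CPM in WT livers, through Alb at 72141 to 77477 CPM and 61733 to 68078 CPM. Serpina1c was also higher in each KO liver, Apoa1, Ttr, Tat and Cyp2e1 overlapped, and the part of these markers was not tested.

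This count moved with single mice. It was 7 without WT insulin replicate 2, the liver with few mitochondrial counts, all lower, beside 7.19% of all genes called lower and 5.99% higher. Without WT insulin replicate 1 it was 6, 5 of them lower, beside 5.79% lower and 5.38% higher, and Abcd2, Acot2 and Pex11a were called in both. It was 1 without WT insulin replicate 3 or KO insulin replicates 1 or 2. Bdh1 kept its call in 7 of 7 such fits and Oxct1 in 2 of 7, lost without WT insulin replicates 1, 2 or 3 or KO insulin replicates 1 or 2, with −0.64 without WT insulin replicate 1. The 4 comparisons of fasted livers share groups, so their values are not independent of each other. Of 33 further pathway genes, 1 was called higher, the acyl-CoA synthetase gene Acsl4 (0.44), and 0 lower by edgeR.

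**Figure D3:**
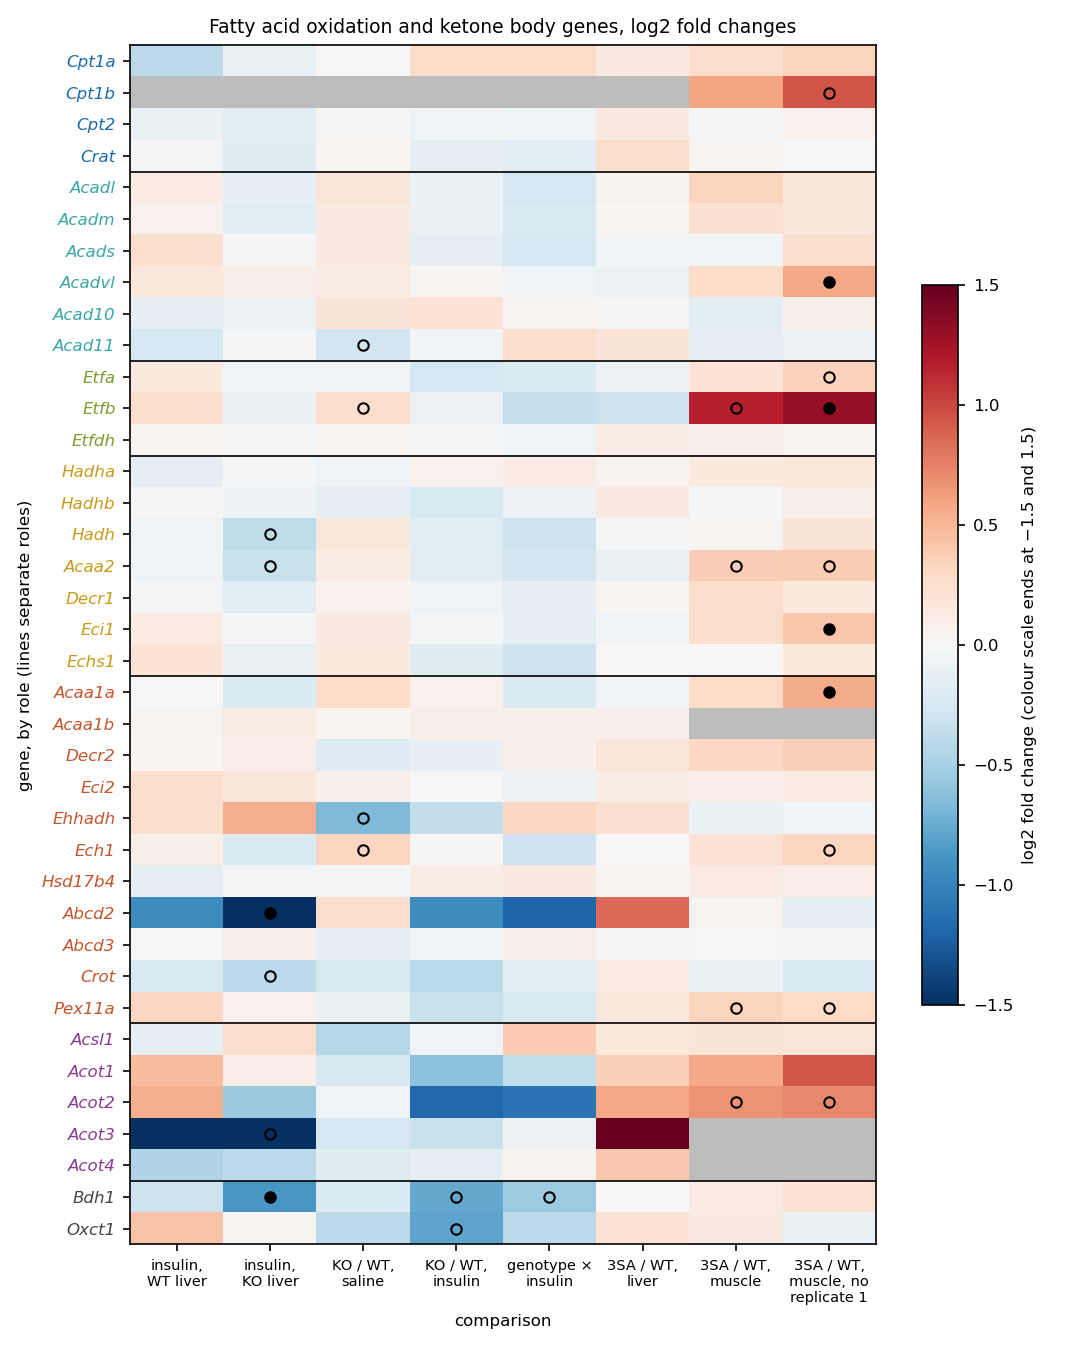
Log2 fold changes of the 38 genes in 8 comparisons, coloured from −1.5 to 1.5, with grey for genes not tested. Open circles mark called genes and filled circles those called with an adjusted p under 0.05, which outside the tissue comparison are 2 in KO livers after insulin and 4 in muscle without 3SA replicate 1.

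In livers of 3SA mice and their littermates, the members were read for an effect of the 3 replaced serines. The first thing the values show is the spread of 3SA livers 3 and 4. Acot3 stood at 1.05, 0.674, 0.686 and 0.0893 CPM in WT littermate livers and 1.51, 1.51, 8.77 and 0 CPM in 3SA livers. The highest and the lowest value were both 3SA livers, replicates 3 and 4. Acot1 stood at 26.1, 18.6, 18.7 and 14.1 CPM in WT littermate livers and 17.8, 28.4, 48.8 and 4.62 CPM in 3SA livers. Acot2 stood at 4.18, 3.33, 2.66 and 1.52 CPM in WT littermate livers and 3.53, 5.15, 8.24 and 0.722 CPM in 3SA livers. Acot4 stood at 27.1, 22.0, 28.2 and 20.8 CPM in WT littermate livers and 33.4, 28.6, 59.3 and 8.62 CPM in 3SA livers. For all of these thioesterases 3SA liver 3 was the highest and 3SA liver 4 the lowest of the 8.

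Among peroxisomal genes, Abcd2 stood at 14.9, 5.83, 9.35 and 3.21 CPM in WT littermate livers and 10.7, 13.3, 33.041 and 3.32 CPM in 3SA livers. Acaa1b stood at 1315, 1223, 713 and 889.6 CPM in WT littermate livers and 1047, 1158, 1951 and 199 CPM in 3SA livers. Ehhadh stood at 400.2, 318, 343 and 304 CPM in WT littermate livers and 357, 408, 688 and 146 CPM in 3SA livers. In Acaa1b and Ehhadh 3SA liver 3 was highest and 3SA liver 4 lowest, while in Abcd2 littermate liver 4 lay just below 3SA liver 4. Crot was an exception, at 831, 822, 825 and 845 CPM in WT littermate livers and 887, 899, 853 and 969 CPM in 3SA livers. All 4 livers of 3SA mice, replicate 4 the highest, lay above all littermates (0.12 ± 0.08, adjusted p = 0.764, higher in 4 of 4, not called). Acaa1a stood at 192, 197, 178 and 169 CPM in WT littermate livers and 185, 174, 205 and 147 CPM in 3SA livers. Ech1 stood at 311, 281, 242 and 252 CPM in WT littermate livers and 269, 278, 322 and 207 CPM in 3SA livers. Both were lowest in 3SA liver 4, with the groups overlapping. Decr2 stood at 183, 178, 171 and 149 CPM in WT littermate livers and 179, 204, 232 and 157 CPM in 3SA livers. Pex11a stood at 78.1, 81.1, 49.6 and 62.9 CPM in WT littermate livers and 70.7, 84.5, 103 and 45.2 CPM in 3SA livers. For each of these 2 genes 3SA liver 3 was the highest of the 8 livers and the groups overlapped.

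Among genes of the other roles, Cpt1a stood at 322, 350.2, 300.2 and 283 CPM in WT littermate livers and 316, 364, 397 and 297 CPM in 3SA livers. Acad11 stood at 269, 263, 255 and 248 CPM in WT littermate livers and 278, 298, 346 and 258 CPM in 3SA livers. Acaa2 stood at 1013, 968, 854 and 875 CPM in WT littermate livers and 948, 900.4, 1007 and 605 CPM in 3SA livers. Cpt1a and Acad11 were highest in 3SA liver 3, and Acaa2 was lowest in 3SA liver 4. Etfb stood at 33.2, 27.2, 25.0 and 26.2 CPM in WT littermate livers and 27.9, 26.0, 22.2 and 12.9 CPM in 3SA livers. Bdh1 stood at 236, 230.5, 214 and 215 CPM in WT littermate livers and 232, 235, 266 and 155 CPM in 3SA livers. Oxct1 stood at 5.71, 3.92, 5.06 and 5.09 CPM in WT littermate livers and 6.83, 5.05, 4.80 and 6.16 CPM in 3SA livers. Etfb and Bdh1 were lowest in 3SA liver 4, and Oxct1, low in both groups, was lowest in littermate liver 2. Cpt1b stood at 0.192, 0.119, 0.172 and 0.0446 CPM in WT littermate livers and 0.141, 0.0472, 0.0490 and 0.0963 CPM in 3SA livers, too low to be tested.

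With all 8 livers, 0 of 37 members were called in either direction by edgeR, against 2.5% of the 13339 genes tested called higher and 2.38% lower. On the unadjusted p there were 0 members, on the adjusted p 0 against 0% of all genes, and DESeq2 called 0. The median was 0.07 beside −0.0004 over all genes, with 26 higher and 11 lower. Acot3 had the smallest p (2.18 ± 1.02, adjusted p = 0.687, above the littermate median in 3 of 4). Without 3SA liver 4, the lowest in 4 of 6 hepatocyte markers, 8 members were called higher, Decr2, Ehhadh, Abcd2, Acsl1, Acot1, Acot2, Acot3 and Acot4, beside 2.86% of the 13514 genes then tested called higher and 3.74% lower, and the median was 0.17. The part of these markers in this was not tested. Fewer hepatocytes and less RNA of a gene per hepatocyte cannot be told apart in bulk tissue. Without 3SA liver 3, the highest in many of these genes, 0 of 37 members were called. Beside this, 3.02% of 13552 genes were called higher and 2.28% lower. Leaving out any other liver than 3SA liver 4 also gave 0 members called. Cholangiocyte markers, low in all 8 livers, summed to 4.64 to 5.62 CPM in littermates and to 1.89 to 3.04 CPM in 3SA mice, led by Krt19, and their part was not tested. Of 33 further pathway genes 0 were called with all livers by edgeR or DESeq2, and 2 had an unadjusted p under 0.05.

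In muscle, 3SA mice held more of the electron transfer flavoprotein subunit Etfb and of the mitochondrial thioesterase Acot2 than littermates, in 4 of 4 muscles each. Etfb stood at 9.07, 7.35, 5.23 and 9.10 CPM in WT littermate muscles and 12.3, 19.0, 20.2 and 16.3 CPM in 3SA muscles. All 4 muscles of 3SA mice lay above all littermates, replicate 1 by the least, in a gene whose exons are partly shared with Gm45233. Acot2 stood at 11.5, 15.3, 8.38 and 10.5 CPM in WT littermate muscles and 16.039, 22.3, 15.5 and 17.5 CPM in 3SA muscles. Pex11a stood at 16.3, 16.5, 12.8 and 16.9 CPM in WT littermate muscles and 20.8, 18.9, 19.8 and 17.6 CPM in 3SA muscles. For both genes, too, the 4 muscles of 3SA mice lay above the 4 littermates, with replicate 3 closest for Acot2 and littermate 3 the lowest for Pex11a. Acaa2 stood at 159, 159, 135 and 148 CPM in WT littermate muscles and 187, 208, 216 and 153 CPM in 3SA muscles. Its replicates 1 to 3 lay above all littermates and replicate 4 among them.

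These were the 4 members called. Their log2 fold changes were 1.17 ± 0.22 for Etfb (adjusted p = 0.305, DESeq2 adjusted p = 4.51e-04), 0.67 ± 0.20 for Acot2 (adjusted p = 0.880), 0.37 ± 0.13 for Acaa2 and 0.33 ± 0.13 for Pex11a (adjusted p = 1.00 each). They are 4 of 35 tested, all higher, beside 2.78% of the 14081 genes tested called higher and 1.75% called lower. By edgeR 0 members were under 0.05 after adjustment (4 before it), against 0% of all genes, and DESeq2 called 4 with 1 adjusted p under 0.05. The median was 0.15 beside 0.02 over all genes, with 28 of 35 higher. Acaa2 and Pex11a each lost their call without littermate muscle 3 or 3SA muscle 3, which gave a count of 2, and without 3SA muscle 4 the count was 7, with Acadl, Acadm and Decr1 added, beside 2.8% of all genes called higher and 1.93% lower. Acot2 lost its call with all 4 groups in one fit, and Pex11a lost it there and with no filter on low counts.

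Leaving out 3SA muscle 1, the library with most mitochondrial counts, brought the count to 10 of 35, all higher, beside 10.3% of the 14363 genes then tested called higher and 7.1% lower. Of these 10, 4 had an adjusted p under 0.05, against 3.23% of all genes: Etfb (1.30 ± 0.17, adjusted p = 0.00887), Acadvl (0.58 ± 0.08, adjusted p = 0.0106), Acaa1a (0.55 ± 0.08, adjusted p = 0.0132) and Eci1 (0.41 ± 0.08, adjusted p = 0.0378), each higher in 3 of 3. Acadvl, the very long-chain acyl-CoA dehydrogenase, was chosen after its values were seen and stood at 142, 146, 125 and 135 CPM in WT littermate muscles and 50.032, 205, 218 and 176 CPM in 3SA muscles. Acaa1a stood at 34.5, 33.3, 29.0 and 30.3 CPM in WT littermate muscles and 16.3, 49.0, 45.2 and 42.2 CPM in 3SA muscles. Eci1, an enoyl-CoA isomerase also chosen after its values were seen, stood at 96.9, 103, 88.9 and 88.8 CPM in WT littermate muscles and 75.6, 132, 130.1 and 107 CPM in 3SA muscles. In Acadvl, Acaa1a and Eci1, 3SA muscle 1 was the lowest of the 8 muscles and the other 3SA muscles lay above every littermate, as they did for Esrra (0.60 ± 0.12, adjusted p = 0.0373 without replicate 1). The other 6 called were Etfa, Acot2, Acaa2, Ech1, Pex11a and Cpt1b, and DESeq2 called 10 as well, 7 with an adjusted p under 0.05. The median was 0.17 beside 0.02 over all genes.

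Cpt1b, the muscle isoform of the shuttle, stood at 1.79, 0.909, 0.758 and 2.03 CPM in WT littermate muscles and 0.225, 2.68, 2.88 and 2.21 CPM in 3SA muscles. Without 3SA muscle 1, at 0.225 CPM, the other 3 lay above all littermates (0.95 ± 0.34, adjusted p = 0.139), at a level of few counts in a gene whose exons are mostly shared. Cpt1a stood at 8.12, 11.3, 7.73 and 9.06 CPM in WT littermate muscles and 9.57, 9.85, 9.03 and 14.2 CPM in 3SA muscles. Its highest muscle was 3SA replicate 4, the muscle with most Col3a1 and Cd68, whose part was not tested. Ehhadh stood at 8.26, 7.59, 9.14 and 7.15 CPM in WT littermate muscles and 6.58, 9.29, 7.15 and 6.46 CPM in 3SA muscles. Crot stood at 54.8, 54.9, 59.0 and 55.9 CPM in WT littermate muscles and 62.6, 54.5, 48.9 and 39.5 CPM in 3SA muscles. Ehhadh overlapped between the genotypes, and Crot was lowest in 3SA muscle 4. Ech1 stood at 201, 205, 179 and 194 CPM in WT littermate muscles and 172, 247, 278 and 191 CPM in 3SA muscles. Decr2 stood at 3.76, 3.48, 2.62 and 3.67 CPM in WT littermate muscles and 3.83, 3.93, 3.56 and 5.15 CPM in 3SA muscles. Of the 3SA muscles, 2 lay above all littermates for Ech1 and 3 for Decr2.

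Among the remaining named genes, Abcd2 stood at 73.8, 72.3, 72.9 and 70.6 CPM in WT littermate muscles and 100.2, 75.0, 72.3 and 44.8 CPM in 3SA muscles. Acad11 stood at 47.5, 50.8, 47.2 and 50.8 CPM in WT littermate muscles and 40.4, 47.5, 48.9 and 38.6 CPM in 3SA muscles. 3SA muscle 4 was the lowest for both. Bdh1 stood at 47.9, 54.5, 56.9 and 68.3 CPM in WT littermate muscles and 51.2, 55.6, 59.3 and 77.3 CPM in 3SA muscles. Oxct1 stood at 434, 479, 429 and 483 CPM in WT littermate muscles and 722, 430.0, 442 and 375 CPM in 3SA muscles. Oxct1 was highest in 3SA muscle 1 and lowest in 3SA muscle 4, and Bdh1 overlapped throughout. Acot1 stood at 1.16, 2.21, 0.758 and 0.420 CPM in WT littermate muscles and 0.169, 2.48, 1.10 and 2.72 CPM in 3SA muscles. Acot4 stood at 0.141, 0.119, 0.531 and 0.191 CPM in WT littermate muscles and 0.900, 0.198, 0.194 and 0.672 CPM in 3SA muscles. Acaa1b stood at 0.316, 0.316, 0.0758 and 0.0765 CPM in WT littermate muscles and 0, 0.264, 0.324 and 0.0320 CPM in 3SA muscles. These 3 genes stayed under 3 CPM in every muscle, and Acot3 stood at 0 counts in all 8 muscles. Acaa1b, Acot3 and Acot4 were not tested. Markers of type I fibres, all 7 with at least 10 counts, summed to 2906 to 3375 CPM in littermates and to 4328, 2239, 2817 and 3056 CPM in 3SA muscles. Among them 3SA muscle 1 had the highest Myh7 of the 8 muscles and the lowest Tnni1 and Myl3. Tnni1 lay at 81.3 to 139.04 CPM in 3SA muscles and 139.1 to 161 CPM in littermates. In 3SA muscles 2 to 4, Myh7 lay at 487 to 740 CPM, against 863 to 942 CPM in littermates. Tnnc1 there lay at 104 to 147 CPM, against 166 to 205 CPM, while Tnnt1, Myl3, Myl2 and Atp2a2 overlapped. Dcn lay at 377 to 499 CPM against 564 to 713 CPM, with Col1a1, Col3a1 and Pdgfra overlapping. Their mitochondrial shares were 9.15 to 9.85%, against 10.04 to 10.82% in littermates. The part of these markers in these differences was not tested. Of 29 further pathway genes tested, 1 was called higher (the carnitine carrier Slc25a20, 0.35) and 0 lower by edgeR. Without 3SA muscle 1 there were 6 higher, among them Mlycd (0.66), and 4 lower, among them Acsl3 (−0.61).

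**Figure D4:**
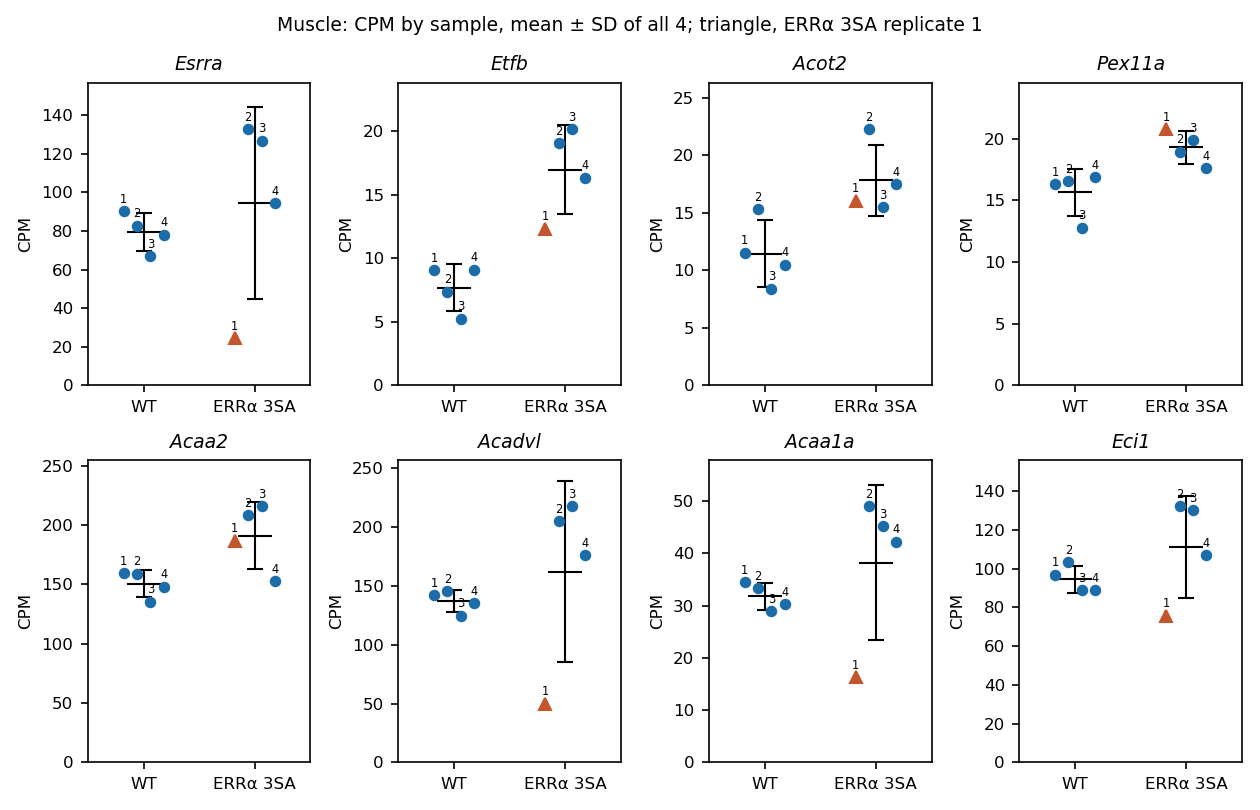
CPM in each muscle, with mean and SD, of Esrra and 7 members in littermates and 3SA mice, with a triangle for 3SA replicate 1. Etfb is higher in each of the 4 muscles of 3SA mice, while in Acadvl, Acaa1a, Eci1 and Esrra the triangle lies below every littermate.

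Whether the effect of the knock-in differed between muscle and liver was tested by the interaction of genotype and tissue. Etfb gave the firmest difference, higher in 3SA muscle and not in 3SA liver (log2 difference 1.47 ± 0.32, adjusted p = 0.292, DESeq2 adjusted p = 0.0136). Its call was kept in 16 of 16 fits with a sample left out, in a gene whose exons are partly shared. Acad11 was the other member called, with a lower value in muscle relative to liver (−0.35 ± 0.15, adjusted p = 0.861). These 1 higher and 1 lower of 38 tested stand beside 3.16% and 2.41% of 15688 genes, a share near the background. By edgeR 0 members were under 0.05 after adjustment (2 before it), against 0% of all genes, and DESeq2 called 3, 1 of them adjusted. Acad11 lost its call without littermate livers 3 or 4, 3SA liver 2 or littermate muscles 2, 3 or 4, for a count of 1. It was replaced by Acaa2 without 3SA liver 3, at −0.22 for Acad11, or 3SA muscle 4, and without 3SA liver 4 Ehhadh was added, for a count of 3 beside 3.41% and 2.09% of all genes. The call of Acad11 was also lost with no filter on low counts and without mitochondrial genome genes. Not called by edgeR were Acaa2 (0.44 ± 0.22), Acot2 (0.06 ± 0.62) and Pex11a (0.14 ± 0.29), so their rise in muscle is not shown to differ from liver. Acaa2 was called by DESeq2, with the replicate number as a block and without mitochondrial genome genes. Acot2 and Pex11a gained no call in the alternatives run.

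Without 3SA muscle 1 the interaction count was 5 higher and 2 lower, beside 8.53% and 8.73% of 16019 genes. The higher were Etfb (1.59 ± 0.30, adjusted p = 0.0229), Acadvl (0.63 ± 0.16, adjusted p = 0.0524), Acaa1a (0.56 ± 0.14, adjusted p = 0.0528), Etfa (0.40 ± 0.18) and Cpt1b (1.57 ± 0.72), and the lower were Crot (−0.36 ± 0.14) and Acad11 (−0.32 ± 0.14). Etfb was the 1 with an adjusted p under 0.05, against 2.3% of all genes, and DESeq2 called 7, 4 of them adjusted. The median was 0.09, and 0.07 with all samples. Eci1 (0.42 ± 0.25) was not called here. Livers and muscles of one genotype enter as independent samples, and whether a pair came from one mouse is not stated. Of 34 further pathway genes, 1 was called higher with all samples (Acot12), and 7 were called higher and 4 lower without 3SA muscle 1.

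Muscle and liver of WT littermates were compared last, and here nearly every member differed. Muscle held more of Oxct1, which lets it burn ketone bodies, of the carnitine acetyltransferase Crat, of Cpt1b and Abcd2 and of Acot2, Hadhb and the long-chain dehydrogenase Acadl. Liver held more of all 10 other peroxisomal members, of Cpt1a, of Bdh1 and of all 3 electron transfer genes. The count was 7 higher in muscle and 28 lower of 37 tested, beside 42% and 42.2% of the 14886 genes tested, and 36 members had an adjusted p under 0.05 against 86.5% of all genes. The median was −1.48 beside 0.0015 over all genes.

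By role, the called members divided as follows. In the carnitine shuttle 2 were higher in muscle and 2 lower: Cpt1b lay at 0.758 to 2.03 CPM in muscles and 0.0446 to 0.192 CPM in livers (log2 fold change 3.32 ± 0.47, adjusted p = 1.30e-05) and Cpt1a at 7.73 to 11.3 CPM in muscles and 283 to 350.2 CPM in livers (−5.08 ± 0.12, adjusted p = 4.18e-14). Among 6 acyl-CoA dehydrogenases 1 was higher and 4 lower, Acad11 by −2.37 and Acad10 by −3.56. All 3 electron transfer genes were lower, Etfb the most (−1.83 ± 0.15, adjusted p = 5.69e-08). Etfb held 5.23 to 9.10 CPM in these muscles and 25.0 to 33.2 CPM in these livers. Exons of Etfb and Cpt1b are largely shared with readthrough genes at 0 counts. The part of this in their tissue differences, and in the rank of Etfb, was not tested. Of 7 later mitochondrial genes 1 was higher, Hadhb (1.16), and 5 were lower, among them Acaa2 (−2.59 ± 0.09, adjusted p = 2.43e-12).

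Peroxisomal genes had 1 higher and 10 lower of 11, with a median of −3.16. Abcd2 lay at 70.6 to 73.8 CPM in muscles and 3.21 to 14.9 CPM in livers (3.12 ± 0.30, adjusted p = 2.01e-07), Ehhadh at 7.15 to 9.14 CPM in muscles and 304 to 400.2 CPM in livers (−5.38 ± 0.12, adjusted p = 1.77e-14) and Decr2 at 2.62 to 3.76 CPM in muscles and 149 to 183 CPM in livers (−5.62 ± 0.12, adjusted p = 8.82e-15). Crot (−3.85 ± 0.07, adjusted p = 2.42e-15) and Pex11a (−2.09 ± 0.15, adjusted p = 7.32e-09) were lower too, and so were Ech1 (−0.45), Acaa1a (−2.50) and Acaa1b, which in muscle was at or under 0.316 CPM. Of 4 synthetase and thioesterase genes tested, Acot2 was higher (1.97 ± 0.25, adjusted p = 4.51e-06) and 3 were lower, Acot1 (−4.07), Acot4 (−6.59) and Acsl1 (−1.69). Acot3 was not tested. By group means over a floor of 3 counts, it was at least 5.53-fold higher in littermate liver than in littermate muscle. The same measure gave at least 25.6-fold for 3SA liver over 3SA muscle. Littermate liver 4 had 2 counts, under that floor, and without littermate liver 1 the littermate value was 4.27-fold. A check chosen after seeing the data left out 3SA liver 3, which gave at least 8.73-fold, and 3SA liver 4 had 0 counts, as the muscles did. Of the ketone body enzymes, Oxct1 lay at 429 to 483 CPM in muscles and 3.92 to 5.71 CPM in livers (6.55 ± 0.11, adjusted p = 1.65e-15) and Bdh1 at 47.9 to 68.3 CPM in muscles and 214 to 236 CPM in livers (−1.94 ± 0.10, adjusted p = 1.30e-10). For the tested differences named here the 4 littermate muscles lay apart from the 4 littermate livers, and each named call was kept in 8 of 8 fits with a sample left out.

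The 2 members tested and not called were Acadm (0.11, adjusted p = 0.316), with overlapping groups, and Hadha (0.17, adjusted p = 0.0395), overlapping and under the fold of 1.2. Hadha and Hadhb encode the 2 subunits of one enzyme complex. DESeq2 called 35 as well. Of 34 further pathway genes, 5 were higher in muscle and 27 lower.

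**Figure D5:**
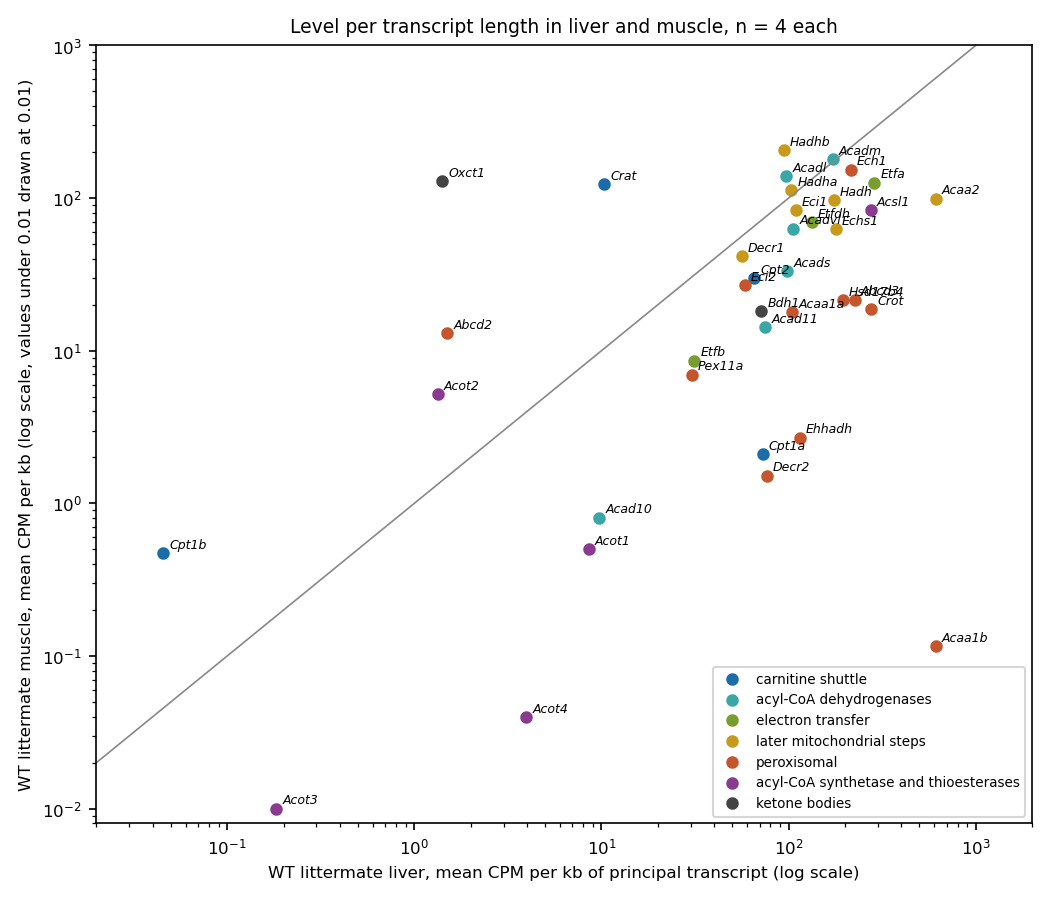
Mean CPM per kb of each member in littermate liver against littermate muscle on logarithmic axes, with values under 0.01 drawn at 0.01. Oxct1 lies far to the muscle side and Acaa1b, Ehhadh, Decr2 and Cpt1a to the liver side.

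The fasted livers and the livers of the 3SA experiment, counted and normalized apart, stand side by side as follows. Of the 38 members, 8 were higher in every fasted liver than in every liver of the 3SA experiment, 2 were lower in every one and 28 overlapped, beside 3.78%, 19.2% and 77.0% of the 12618 genes tested in livers of both. Ehhadh lay between 1407 and 5324 CPM in the 15 fasted livers and between 146 and 688 CPM in the 8 livers of the 3SA experiment. Acot1 lay between 93.9 and 478 CPM in the former and between 4.62 and 48.8 CPM in the latter. Cpt1a lay between 713 and 1621 CPM beside 283 to 397 CPM. Etfb lay between 241 and 368 CPM beside 12.9 to 33.2 CPM, in a gene for which the tables also differ in the listed overlap. The 2 lower were Etfa, between 182 and 258 CPM beside 283 to 444 CPM, and Echs1, between 124 and 205 CPM beside 224 to 319.8 CPM, both chosen after their values were seen. Experiment, fasting, injection and counting cannot be told apart in these differences, and they were not tested.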

How the data were processed

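Counts per gene of 31 libraries, 15 fasted livers and 16 livers and muscles of the 3SA experiment, were used. The authors deposited raw counts per gene, made from paired-end NEBNext Ultra libraries by alignment to mm10 with STAR 2.5, which also counted the reads, and the strand setting is not given. Symbols, exons and positions came from GENCODE vM21 on GRCm38, which matched 34490 of 35275 identifiers in the insulin table (97.8%) and 54495 of 54532 in the 3SA table (99.9%). Each comparison was fitted on all genes of its own groups, and each interaction on its 4 groups, with edgeR 4.0.16 in R 4.3.3 (filterByExpr, TMM, quasi-likelihood test). Called means an unadjusted p under 0.05 and a fold of at least 1.2, the criterion of the study, and adjusted p-values are Benjamini-Hochberg over all genes tested. CPM used TMM library sizes. The log2 deviations of each library were taken from CPM with a small constant added. The correlations of same-numbered samples used log2 CPM with a prior count of 2. Errors of log2 fold changes are standard errors.

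Values in every sample are given for the called members with the 4 smallest p-values of each comparison, for Cpt1a, Cpt1b, Bdh1 and Oxct1 and for the Acot1 to Acot4 and Acaa1a and Acaa1b paralogs, 19 genes in all. The members and lists were chosen with earlier results of these data known. Alternatives were DESeq2 1.42.0, RLE scaling, no filter on low counts, the replicate number as a block, 4 groups in one fit, removal of mitochondrial genome genes, the adjusted p as the call rule and each sample left out in turn. The fits were tested on simulated data. Any 2 replicates of a group differed by at least 6.75 in chi-square over degrees of freedom, and all were kept apart. Floors of 3 counts cover counting error only. Promoters are those of RefSeq, and the protein sequences of the members were not analysed here.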

Additional observations from a re-analysis of the deposited data

Results flagged for a closer look

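Within a group, 4 samples lay far from the other 3 by a test on the gap to the nearest value, out of 137 groups of 4 tested over 20 genes, where chance gives about 1 in 20, or 6.85. Ech1 in WT saline liver 2 was 193.7 CPM against 293.1 to 308 CPM in the others. Pex11a in littermate muscle 3 was 12.8 CPM against 16.3 to 16.9 CPM. Cpt1a in 3SA muscle 4 was 14.2 CPM against 9.03 to 9.85 CPM. Esrra in WT insulin liver 2 was 96.5 CPM against 53.7 to 59.0 CPM.

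For 3 members a change differed between groups at an unadjusted p under 0.05 of the interaction, and none of these passed an adjusted p of 0.05 by edgeR with all samples. Bdh1 responded to insulin by −0.55 (log2) more in KO than in WT livers. Acad11 differed by −0.35 and Etfb by 1.47 in their response to the knock-in in muscle relative to liver.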

How the results depend on the processing

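Numbers of members called moved with the processing as follows, and the cause was not tested. In place of edgeR, DESeq2 gave 1 for insulin in WT livers (0 by edgeR), 8 in KO livers (6 by edgeR), 4 for KO against WT after insulin (2 by edgeR) and 3 for the genotype by tissue interaction (2 by edgeR). With no filter on low counts there were 2 for insulin in WT livers, 8 in KO livers (6 with the filter), 5 for KO against WT after saline (4 with it) and 5 after insulin, 1 for 3SA against WT in liver (0 with it) and 3 in muscle (4 with it), 1 for the genotype by tissue interaction (2 with it) and 36 for muscle against liver (35 with it). With all 4 groups in one fit there were 3 for insulin in WT livers, 4 in KO livers (6 in the fit of 2 groups) and 2 for 3SA against WT in muscle (4 in the fit of 2 groups). With an adjusted p under 0.05 as the rule there were 2 of 6 for insulin in KO livers and 0 of 4, 2, 1, 4 and 2 for KO against WT after saline and after insulin, the genotype by insulin interaction, 3SA against WT in muscle and the genotype by tissue interaction. In the fits with DESeq2, no filter or 4 groups, the shares of all genes called higher and lower were 6.7 to 9.52 and 6.85 to 9.74% for insulin in WT livers, 6.45 to 8.51 and 7.23 to 9.43% in KO livers, 4.88 to 6.36 and 4.51 to 5.82% for KO against WT after saline, 3.8 to 5.58 and 4.31 to 5.88% after insulin, 3.87 to 4.31 and 4.19 to 4.95% for the genotype by insulin interaction, 1.82 to 2.61 and 1.52 to 2.34% for 3SA against WT in liver, 2.56 to 4.01 and 1.49 to 2.45% in muscle, 2.86 to 3.65 and 1.45 to 2.65% for the genotype by tissue interaction and 30.4 to 42.3 and 28.4 to 41.4% for muscle against liver.

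The labels do not say that equal replicate numbers pair mice. Deviations of same-numbered samples correlated across genes by −0.22 to 0.33, in WT livers after saline and insulin by −0.03, 0.06, 0.29 and 0.22 for numbers 1 to 4, and 22 of 52 samples correlated best with their own number. With the replicate number as a block, the counts were 7 for insulin in WT livers (2 higher and 5 lower), 2 and 1 for KO against WT after saline and after insulin and 1 for 3SA against WT in liver. It gave 9, all lower, for insulin in KO livers, where Crot was lost and Acadm, Acaa1a, Acot2 and Acot4 were gained, 3 in muscle, where Pex11a was lost, and 3 for the genotype by tissue interaction, where Acaa2 was gained. The shares of all genes called higher and lower with the block were 8.01 and 9.4% for insulin in WT livers, 8.97 and 8.68% in KO livers, 5.55 and 5.48% for KO against WT after saline, 5.39 and 4.33% after insulin, 2.3 and 2.62% for 3SA against WT in liver, 1.29 and 1.09% in muscle and 2.63 and 2.16% for the genotype by tissue interaction. Alternatives chosen after seeing the data left out 3SA muscle 1 together with another change. DESeq2 then gave 10 in muscle and 7 for the genotype by tissue interaction, and the block gave 11 and 8, beside 9.64% higher and 7.44% lower of all genes in muscle and 8.18% and 9.79% for the interaction with DESeq2, and 9.56% and 7.53%, and 8.62% and 8.96%, with the block.

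With each sample left out in turn, counts ranged from 0 to 4 for insulin in WT livers, 4 to 9 in KO livers, 0 to 6 for KO against WT after saline, 1 to 7 after insulin, 0 to 2 for the genotype by insulin interaction, 0 to 8 for 3SA against WT in liver, 2 to 10 in muscle, 1 to 7 for the genotype by tissue interaction and 35 to 36 for muscle against liver. In the same fits the shares of all genes called higher and lower were 6.55 to 8.96 and 6.53 to 9.31% for insulin in WT livers, 5.41 to 8.99 and 6.85 to 9.48% in KO livers, 4.94 to 7.29 and 4.13 to 7.1% for KO against WT after saline, 2.35 to 5.99 and 3.43 to 7.19% after insulin, 2.56 to 5.33 and 3.26 to 5.46% for the genotype by insulin interaction, 1.92 to 3.02 and 1.84 to 3.74% for 3SA against WT in liver, 1.5 to 10.3 and 1.08 to 7.1% in muscle, 2.51 to 8.53 and 1.5 to 8.73% for the genotype by tissue interaction and 40.5 to 41.9 and 41.3 to 42.8% for muscle against liver. Of the values of named genes, 56 of 56 kept their call under RLE scaling, 55 of 56 under DESeq2, 54 of 56 with no filter, 51 of 56 with the block, 47 of 53 with 4 groups in one fit, 40 of 41 without mitochondrial genome genes and 201 of 252 with one sample left out, and 0 reversed. No scaling moved the median of all genes by over 0.1.

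Depth limits what can be said of Cpt1b in liver and of Acaa1b, Acot3 and Acot4 in muscle, with at most 15 counts in any liver and at most 21 in any muscle. Groups of 3 or 4 mice, libraries that stand apart and genes that share exons limit the rest.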

Other observations

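Genes around the pathway were read as lists, of which only called genes are named. Beside the counts below, the shares of all genes called higher and lower were 8.34% and 8.91% for insulin in WT livers, 8.05% and 9.14% in KO livers, 5.98% and 5.3% for the knockout after saline and 4.57% and 5.42% after insulin. They were 2.5% and 2.38% in 3SA liver, 2.78% and 1.75% in 3SA muscle, 10.3% and 7.1% there without 3SA muscle 1 and 42% and 42.2% between littermate tissues. Of 12 nuclear receptor and coactivator regulators, insulin gave 3 called higher (Lpin1 1.86, Ppargc1a 1.22 and Esrra 0.67, all log2) and 2 lower (Rxra −0.43 and Ncor1 −0.49) in WT livers, and 2 higher (Lpin1 2.01 and Nrip1 0.35) and 2 lower (Pparg −1.30 and Rxra −0.28) in KO livers. The knockout gave 2 higher and 2 lower after saline and 1 of each after insulin, Esrra among the lower both times. In 3SA mice 0 were called in liver by edgeR, and 2 were higher in muscle (Nrip1 0.42 and Ppara 0.39), or 2 higher and 2 lower without 3SA muscle 1. Between littermate muscle and liver 8 were higher and 3 lower.

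Of 14 tested PPAR-alpha targets outside oxidation, insulin gave 4 called higher in WT livers (Pdk4 2.54, Plin5 1.66, Hilpda 1.45 and Angptl4 0.88), and 6 higher and 3 lower in KO livers (among them Pdk4 1.42, Plin5 1.17, Fgf21 −1.30 and Plin2 −1.11). The knockout gave 6 higher after saline, led by Fgf21 (1.56), Hilpda (1.05) and Pdk4 (0.73), and 2 higher and 1 lower after insulin. Among 3SA mice 1 was higher in liver (Pdk4 0.87). In muscle 9 were tested and 2 were higher (Angptl4 1.56 and Fabp3 0.69), or 6 of 9 without 3SA muscle 1 (Angptl4 1.89, Hilpda 0.90, Fabp3 0.79, Pdk4 0.78, Plin5 0.73 and Ucp3 0.59). Between littermate muscle and liver 4 of 16 were higher and 11 lower.

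Of 8 genes of insulin action in liver, 4 were called higher after insulin in WT livers (Igfbp1 2.35, Insig2 1.23, G6pc 0.65 and Irs2 0.61) and 1 lower (Pck1 −0.45), and in KO livers 4 higher (Igfbp1 1.29, Insig2 0.97, Irs2 0.95 and G6pc 0.82) and 1 lower (Srebf1 −0.77). The knockout gave 1 higher after saline (Igfbp1 2.10) and 2 higher and 1 lower after insulin. In 3SA liver 0 were called by edgeR or DESeq2, with 0 at an unadjusted p under 0.05. Of 6 tested in 3SA muscle 1 was lower (Srebf1 −0.66, and −0.45 without 3SA muscle 1), and 7 were lower in littermate muscle than in liver.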
